A study of Hordeum vulgare with 22 samples.

Results

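The genes described here are those whose annotation in the deposited barley expression table contains the word auxin, in any case, 153 of 24318 genes. They comprise 45 auxin response factors, 44 SAUR proteins, 26 Aux/IAA repressors, 16 auxin efflux carriers, 5 auxin influx carriers, 5 GH3 conjugating enzymes, 4 dormancy and auxin-repressed proteins, 3 F-box auxin receptors, 2 auxin-binding proteins and 3 others. RNA was sequenced from 2 lines, the barley (Hordeum vulgare) cultivar Bowman, labelled wild-type, and mnd1.a, a near-isogenic line in the Bowman background that carries the mnd1.a (many-noded dwarf) allele. Inflorescence-enriched tissue, which included the inflorescence base and small leaves below it, was collected at Waddington stages W2.0, W3.5 and W5.0 from plants grown in 16 h days at 22 °C and 8 h nights at 18 °C. Bowman had 3, 4 and 4 libraries at these stages and mnd1.a had 3, 3 and 4. The line is 1 allele in 1 background, so the allele and any donor chromosome carried along with it cannot be told apart.

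Auxin is exported from plant cells by efflux carriers and imported by AUX1/LAX influx carriers, and their joint placement produces auxin maxima that mark where spikelet, floret and leaf primordia arise on a meristem. Inside the cell, auxin joins TIR1/AFB F-box receptors to Aux/IAA repressors, the repressors are degraded, and auxin response factors (ARFs) bound to target promoters are freed from TOPLESS corepressors. Many Aux/IAA, SAUR and GH3 genes are themselves early auxin targets, SAUR proteins promote cell expansion, and GH3 enzymes conjugate auxin to amino acids.

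Library totals ran from 11436651 to 21596190 estimated counts, and 3 counts in a library were worth 0.1292 to 0.2528 CPM (counts over the library total, TMM-scaled to a common depth). The lowest totals were those of Bowman W3.5 replicates 4 and 2, at 11436651 and 11671454. Pairwise correlations between libraries of 1 group lay between 0.924 and 0.970. The members' median SD of log2 CPM was smallest in mnd1.a at W2.0 (0.204, all genes 0.142). It was largest in Bowman at W3.5 (0.458, all genes 0.265). In every group the members' median SD was larger than that of all genes. In 4 pairs of SAUR genes on chromosome 5H, 8 members in all, both genes carried identical counts in every library, so these are not independent measurements. Of the 153 members, 122 passed the filter on low counts and 31 did not. The 31 had between 25 and 128 counts over all libraries, and 16 of them were SAUR genes. The library code prefix, 1327 or 1328, was shared by the lines at W2.0 and W3.5 but differed between them at W5.0, where prefix and line cannot be told apart. The labels do not say whether libraries of a group were grown as separate plants, and the p-values therefore measure the spread between these libraries. MND1 itself (HORVU7Hr1G113480) measured 4.80 to 6.71 CPM in mnd1.a and 10.48 to 20.97 CPM in Bowman at W2.0, 3.48 to 4.55 and 14.38 to 30.59 CPM at W3.5, and 2.39 to 6.02 and 6.15 to 16.0 CPM at W5.0. The groups did not overlap at any of these stages. It had a log2 fold change of -1.40 at W2.0 that did not pass the test (edgeR adjusted p = 0.115), and it was lower in the mutant line at W3.5 (log2 -2.38, 0.00141) and W5.0 (log2 -1.33, 0.00653).

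The first question was how many auxin-annotated genes differed between the lines. At W2.0, 2 of the 122 tested members were called, 1 higher and 1 lower in mnd1.a, or 1.64% against 0.79% of all 21132 genes tested (0.497% higher and 0.293% lower). At W3.5, 5 were called, all lower, or 4.1% against 3.91% of all genes (1.77% higher and 2.13% lower). At W5.0, 29 were called, 15 higher and 14 lower, next to 30.2% of all genes (15% higher and 15.2% lower). A call is an adjusted p under 0.05 in edgeR's quasi-likelihood test, adjusted by the Benjamini-Hochberg method over all genes. At an unadjusted p under 0.05 in that test, the counts by stage were 9, 20 and 44 of the 122 members. Of all 21132 genes they were 1896, 4523 and 8714. In stage order, the members' median log2 fold change was 0.0018, -0.004 and -0.03, next to -0.0083, -0.0075 and -0.0061 for all genes tested. The W2.0 share rests on 2 genes, the later shares were near or below the background, and the medians were near 0. Without single libraries the W2.0 count was 0 or 1, at 0 without Bowman replicate 1 or mnd1.a replicate 2. The W3.5 count was 11 without Bowman replicate 1 and 2 without mnd1.a replicate 2, and the W5.0 count was 19 without mnd1.a replicate 3. In all, 32 members were called at 1 stage or more, IAA2 alone at all 3 stages, and 2 at exactly 2 stages, the ARF19 gene HORVU7Hr1G096460 and the efflux carrier HORVU6Hr1G076110. Libraries of the lines did not overlap for 33, 11 and 34 of the 122 tested members in stage order. Of all 21132 genes tested, 3895, 2720 and 7221 did not overlap (18.4%, 12.9% and 34.2%).

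**Figure D1:**
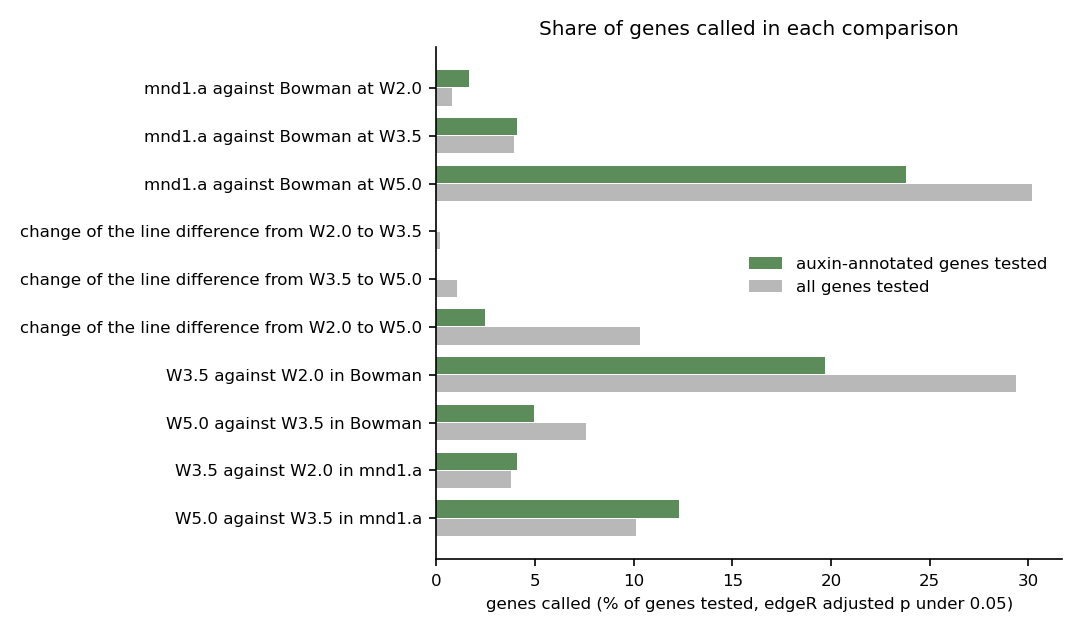
Share of tested genes called in each comparison (horizontal axis, % of genes tested), for the 122 tested auxin-annotated genes (green) and all 21132 tested genes (grey). At W5.0, 29 members and 30.2% of all genes were called, and for the change of the line difference from W2.0 to W5.0 they were 2.46% and 10.3%.

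Among the transport genes, line differences that passed the test were found in the efflux carriers. The annotation calls all 16 auxin efflux carrier family proteins and does not separate plasma-membrane PIN carriers from PIN-LIKES proteins of the endoplasmic reticulum. Of 13 tested, 1 was called higher at W2.0, 0 were called at W3.5 (edgeR, 3 at an unadjusted p under 0.05), and 3 were called higher and 1 lower at W5.0. The W2.0 share, 7.69% against 0.79% of all genes, rests on 1 gene. The W5.0 share was 30.8% against 30.2%. HORVU6Hr1G076110 (6H from 524080637 to 524083837) was the carrier called at both ends of the course. At W2.0 it measured 55.6, 60.7 and 49.9 CPM in mnd1.a and 34.2, 32.6 and 43.7 CPM in Bowman, so every mnd1.a library lay above every Bowman library. The log2 fold change at W2.0 was 0.59 ± 0.14 (SE, adjusted p = 0.0479 in edgeR), and the call was lost when any of 5 of the 6 libraries was left out, with adjusted p up to 0.235. At W3.5 it measured 40.2, 37.6 and 43.3 CPM in mnd1.a and 32.3, 26.8, 33.1 and 29.8 CPM in Bowman, again without overlap, but the log2 fold change of 0.40 ± 0.13 (SE, adjusted p = 0.0793 in edgeR) did not pass. At W5.0 the values were 33.5, 24.5, 31.9 and 27.3 CPM in mnd1.a and 22.7, 20.2, 18.8 and 16.4 CPM in Bowman, and the log2 fold change of 0.58 ± 0.12 (SE, adjusted p = 0.00169 in edgeR) held without each library in turn. Its libraries thus lay higher in mnd1.a at each stage, and its group means declined from stage to stage in both lines. In these bulk samples, a different number of cells of a type and a different amount of RNA per cell cannot be told apart.

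Other efflux carriers called at W5.0 had low levels. HORVU3Hr1G111420 (3H from 683347565 to 683349737) measured 0.824, 1.00, 1.51 and 0.986 CPM in mnd1.a and 0.532, 0.128, 0.394 and 0.127 CPM in Bowman at W5.0. The groups did not overlap, and the log2 fold change was 1.78 ± 0.46 (SE, adjusted p = 0.00687 in edgeR). HORVU5Hr1G073630 (5H from 540421870 to 540425772) was the carrier that was lower, at 0.824, 1.00, 1.89 and 0.986 CPM in mnd1.a and 2.75, 4.75, 7.09 and 2.98 CPM in Bowman. Every Bowman library lay above every mnd1.a library, with a log2 fold change of -1.89 ± 0.53 (SE, adjusted p = 0.0122 in edgeR). HORVU3Hr1G067670 was higher by a log2 fold change of 1.20 ± 0.45 (SE, adjusted p = 0.0498 in edgeR), close to the threshold, with overlapping groups, and the call was lost without any of 6 of the 8 libraries.

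At W2.0, 5 of the 13 carriers had an unadjusted p under 0.05 in edgeR, next to 1896 of all 21132 genes tested. HORVU6Hr1G076110 was the only carrier called. HORVU7Hr1G038700 (7H from 99249993 to 99253127) was one of the rest, with 118, 129 and 107.83 CPM in mnd1.a and 80.6, 80.2 and 95.3 CPM in Bowman, and the groups did not overlap. Its log2 fold change was 0.47 ± 0.14 (SE, adjusted p = 0.139 in edgeR). HORVU3Hr1G114270 measured 25.2, 36.7 and 33.2 CPM in mnd1.a and 11.2, 18.0 and 16.7 CPM in Bowman, also without overlap, with a log2 fold change of 1.05 ± 0.27 (SE, adjusted p = 0.0780 in edgeR). Summed over the 16 carriers, mnd1.a libraries held 296.2 to 337.0 CPM and Bowman libraries 253.0 to 290.0 CPM at W2.0, whereas at W5.0 the sums overlapped, at 247.3 to 282.0 and 231.3 to 278.1 CPM. The higher sum at W2.0 was not shared across the family. Of the 13 tested, 7 had a positive log2 fold change at W2.0, with a median of 0.05 (all genes -0.0083). Green leaf markers, genes annotated with photosystem, chlorophyll a-b binding, plastocyanin or ribulose bisphosphate carboxylase small, were higher in mnd1.a at W2.0. Of 78 tested, 31 were called higher and 0 lower, with a median log2 fold change of 1.33 and summed levels of 859.9 to 1516.1 CPM in mnd1.a against 295.8 to 510.7 CPM in Bowman. Of the 96 in the table, 3 were at 0 in all mnd1.a libraries and 2 in all Bowman libraries at this stage. Their part in the efflux carrier levels was not tested.

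Import and support of transport showed no calls between the lines. Of 5 influx carriers, which bring auxin into cells, 4 were tested and 0 were called at any stage in edgeR, with 0, 1 and 2 at an unadjusted p under 0.05 in stage order. The one with the highest CPM, auxin transporter-like protein 3 (HORVU1Hr1G016700), measured 66.5, 72.2 and 71.3 CPM in Bowman and 86.7, 81.7 and 83.0 CPM in mnd1.a at W2.0. The mnd1.a libraries lay above the Bowman libraries there, but the log2 fold change of 0.26 ± 0.18 (SE, adjusted p = 0.758 in edgeR) did not pass, and at W3.5 and W5.0 the lines overlapped. A second gene of that name, HORVU4Hr1G019930, had a log2 fold change of 1.39 ± 0.61 (SE, adjusted p = 0.0955 in edgeR) at W5.0. BIG (HORVU5Hr1G051500), a very large protein that polar auxin transport needs in Arabidopsis, had log2 fold changes of -0.17 ± 0.13, -0.07 ± 0.12 and -0.24 ± 0.11 (SE) in stage order, and none passed (edgeR adjusted p = 0.800, 0.806 and 0.119).

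None of the 3 receptors, which bind auxin together with Aux/IAA proteins, had a line difference that passed the edgeR test, with 0, 1 and 1 at an unadjusted p under 0.05. Auxin F-box protein 5 is the annotation of HORVU6Hr1G077570 (6H from 530990733 to 530993971), which measured 99.7, 107.6, 108.5 and 109 CPM in Bowman and 119, 107.85, 124 and 101 CPM in mnd1.a at W5.0, with overlap. Its log2 fold changes were 0.07 ± 0.08, -0.17 ± 0.08 and 0.09 ± 0.07 (SE) at the 3 stages. A second auxin F-box protein 5, HORVU4Hr1G078120, reached 0.18 ± 0.08 (SE, adjusted p = 0.102 in edgeR) at W5.0. The third receptor, auxin signaling F-box 3 (HORVU6Hr1G021040), stayed between 0.545 and 2.18 CPM over all 21 libraries and was not called. Neither auxin-binding protein was called, and auxin-binding protein 4 (HORVU5Hr1G026780) had log2 fold changes of 0.09 ± 0.08, -0.09 ± 0.07 and 0.08 ± 0.07 (SE).

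Among the Aux/IAA repressors, IAA2 was lower in mnd1.a at every stage, and it was the only member called at all 3. IAA2 (HORVU3Hr1G019750) lies on 3H from 57412765 to 57416276. At W2.0 it measured 17.6, 13.0 and 16.97 CPM in mnd1.a and 28.9, 21.9 and 29.7 CPM in Bowman. At W3.5 the values were 20.8, 20.99 and 20.0 against 31.4, 44.7, 41.3 and 44.3 CPM, and at W5.0 they were 28.9, 23.9, 27.0 and 24.5 against 35.2, 38.6, 40.3 and 31.8 CPM. The lines did not overlap at any stage, and the gap was widest at W3.5, where the lowest Bowman library lay above the highest mnd1.a library. The log2 fold changes were -0.76 ± 0.15 (SE, adjusted p = 0.0127 in edgeR), -0.97 ± 0.14 (SE, adjusted p = 3.82e-04 in edgeR) and -0.48 ± 0.12 (SE, adjusted p = 0.00688 in edgeR) in stage order. The W2.0 call was lost without Bowman replicate 1 (adjusted p = 0.063), Bowman replicate 3 (0.0658) or mnd1.a replicate 2 (0.0881), while the calls at W3.5 and W5.0 held without each library in turn. None of the 3 tests of a change in this difference between stages passed (edgeR adjusted p = 0.686, 0.246 and 0.388).

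IAA16 (HORVU1Hr1G028170, 1H from 148724184 to 148726171) was lower at W3.5 in mnd1.a, with 8.89, 10.9 and 5.06 CPM against 14.3, 26.1, 15.6 and 23.1 CPM in Bowman. Every mnd1.a library lay below every Bowman library, and the log2 fold change was -1.26 ± 0.24 (SE, adjusted p = 0.00508 in edgeR). At W2.0 it measured 11.6, 11.9 and 13.1 CPM in mnd1.a and 19.9, 19.1 and 16.3 CPM in Bowman, also without overlap, but -0.59 ± 0.24 (SE, adjusted p = 0.421 in edgeR) did not pass, nor did -0.41 ± 0.21 (SE, adjusted p = 0.155 in edgeR) at W5.0. Bowman replicates 2 and 4 at W3.5 were the libraries with the highest IAA16 levels. Without both of them, an alternative chosen after seeing the data, the log2 fold change was -0.86 and missed the threshold (adjusted p = 0.0643).

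At W5.0, 3 Aux/IAA genes were higher and 2 lower in mnd1.a, of 22 tested, or 22.7% against 30.2% of all genes. IAA31 (HORVU5Hr1G014290) and IAA30 (HORVU5Hr1G014300) are neighbours among the members on 5H, within 49955790 to 50386200. IAA31 measured 11.6, 17.4, 17.6 and 13.9 CPM in mnd1.a and 10.99, 7.52, 8.95 and 7.10 CPM in Bowman, with a log2 fold change of 0.80 ± 0.24 (SE, adjusted p = 0.0179 in edgeR). IAA30 measured 69.9, 75.3, 70.3 and 62.4 CPM in mnd1.a and 53.95, 53.6, 48.8 and 39.1 CPM in Bowman, with a log2 fold change of 0.51 ± 0.17 (SE, adjusted p = 0.0304 in edgeR). For both, all mnd1.a libraries lay above all Bowman libraries. IAA5 (HORVU3Hr1G062160) was higher by a log2 fold change of 0.37 ± 0.10 (SE, adjusted p = 0.00825 in edgeR) and held without each library in turn. IAA1 (HORVU3Hr1G022540) was the other lower gene, at 9.56, 8.96, 8.55 and 9.61 CPM in mnd1.a and 14.2, 12.6, 15.0 and 11.1 CPM in Bowman, with a log2 fold change of -0.53 ± 0.17 (SE, adjusted p = 0.0217 in edgeR). The calls of IAA31, IAA30 and IAA1 were lost without at least 1 library, with adjusted p up to 0.0578, 0.0925 and 0.0645.

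**Figure D2:**
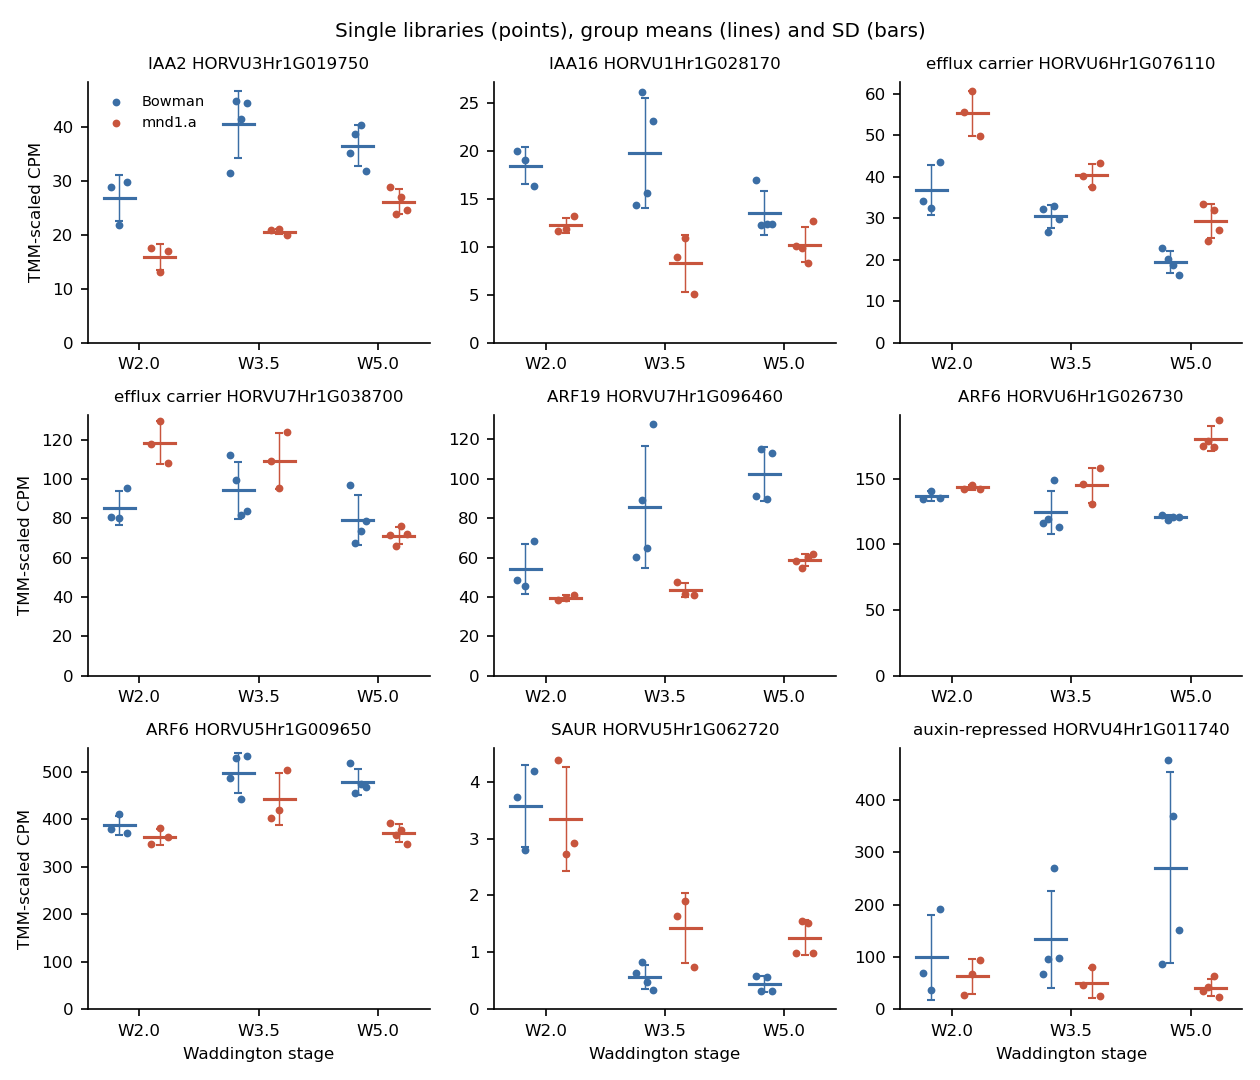
TMM-scaled CPM (vertical axes) of 9 members in each library of Bowman (blue) and mnd1.a (red) by stage (horizontal axes), with group means (lines) and SD (bars). IAA2 and the efflux carrier HORVU6Hr1G076110 show no overlap between the lines at any stage, while the ARF6 gene HORVU6Hr1G026730 reached at W5.0 174 to 194 CPM in mnd1.a against 118 to 122 CPM in Bowman.

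The ARFs, the transcription factors that carry out the auxin response, had 0 of 39 tested members called at W2.0 (edgeR, 2 at an unadjusted p under 0.05), 3 lower at W3.5, and 4 higher and 7 lower at W5.0. These were 7.69% at W3.5 and 28.2% at W5.0, next to 3.91% and 30.2% of all genes. Several ARFs share an annotation number, and at W5.0 the 2 called ARF6 genes went opposite ways while the 3 called ARF19 genes were all lower. In Arabidopsis, ARF6, ARF8 and ARF19 are known as activators of auxin targets and ARF1 and ARF2 as repressors, and the annotation does not say how far this holds for the barley genes. The ARF6 gene HORVU6Hr1G026730 (6H from 103063440 to 103069054) had the smallest p of all members at W5.0. It measured 175, 179, 174 and 194 CPM in mnd1.a and 122, 118, 121 and 121 CPM in Bowman. The groups did not overlap, and the log2 fold change was 0.58 ± 0.08 (SE, adjusted p = 3.08e-05 in edgeR). At W2.0 the same gene measured 142, 145 and 142 CPM in mnd1.a and 134, 141 and 135 CPM in Bowman, and 0.07 ± 0.09 (SE, adjusted p = 0.907 in edgeR) did not pass.

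A second ARF6 gene, HORVU5Hr1G009650 (5H from 23671332 to 23677690), was lower in mnd1.a at W5.0. It measured 392, 367, 376 and 347 CPM in mnd1.a and 518, 455, 475 and 468 CPM in Bowman, with no overlap and a log2 fold change of -0.37 ± 0.08 (SE, adjusted p = 0.00195 in edgeR). Of the ARF19 genes at this stage, HORVU7Hr1G096460 (7H from 588070547 to 588078302) measured 58.3, 54.6, 60.4 and 61.6 CPM in mnd1.a and 91.1, 115, 89.9 and 113 CPM in Bowman, a log2 fold change of -0.80 ± 0.18 (SE, adjusted p = 0.00332 in edgeR). HORVU6Hr1G020330 measured 70.9, 64.0, 67.3 and 65.1 CPM in mnd1.a and 97.2, 91.9, 91.0 and 109 CPM in Bowman, a log2 fold change of -0.54 ± 0.12 (SE, adjusted p = 0.00235 in edgeR). HORVU3Hr1G009330, at low levels, measured 2.06, 1.78, 2.42 and 1.81 CPM against 2.70, 3.15, 2.98 and 3.11 CPM, a log2 fold change of -0.56 ± 0.16 (SE, adjusted p = 0.0140 in edgeR). In each of these genes, every mnd1.a library lay below every Bowman library, and each call held without any single library.

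The ARF19 gene HORVU7Hr1G096460 was lower at W3.5 as well. It measured 47.4, 41.7 and 41.1 CPM in mnd1.a and 60.2, 89.1, 64.8 and 128 CPM in Bowman, where replicates 2 and 4 were the highest. The groups did not overlap, and the log2 fold change was -0.97 ± 0.20 (SE, adjusted p = 0.0104 in edgeR). The call was lost without mnd1.a replicate 2 (0.0656), and without Bowman replicates 2 and 4 together the log2 fold change was -0.53 (0.073). The other ARFs called at W3.5 were ARF15 (HORVU1Hr1G087460), with 129, 112 and 112 CPM in mnd1.a and 159, 150.3, 138 and 166 CPM in Bowman, and ARF14 (HORVU1Hr1G076690), with 57.3, 52.1 and 56.2 CPM and 68.2, 86.7, 58.5 and 105 CPM. Their log2 fold changes were -0.38 ± 0.08 (SE, adjusted p = 0.0116 in edgeR) and -0.53 ± 0.14 (SE, adjusted p = 0.0350 in edgeR). Both genes had mnd1.a libraries below all Bowman libraries. The ARF15 call was lost without mnd1.a replicate 2 (0.0877) and the ARF14 call without any of 5 libraries (up to 0.163). Without Bowman replicates 2 and 4 together, IAA2 was the only one of the 5 members called at W3.5 that stayed past the threshold.

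Of the other ARFs called at W5.0, 3 were higher in mnd1.a. ARF4 (HORVU1Hr1G051780) was at low levels, 1.32, 0.772, 0.605 and 0.821 CPM in mnd1.a and 0.177, 0.257, 0.113 and 0.254 CPM in Bowman, with a log2 fold change of 2.11 ± 0.61 (SE, adjusted p = 0.0142 in edgeR). An ARF15-annotated gene on 4H (HORVU4Hr1G084950) had a log2 fold change of 0.88 ± 0.26 (SE, adjusted p = 0.0161 in edgeR), and ARF1 (HORVU3Hr1G032230) one of 1.11 ± 0.37 (SE, adjusted p = 0.0293 in edgeR). ARF8 (HORVU0Hr1G027410), ARF3 (HORVU3Hr1G072340) and ARF2 (HORVU3Hr1G097200) were lower, with log2 fold changes of -0.45 ± 0.12 (SE, adjusted p = 0.00816 in edgeR), -0.30 ± 0.10 (SE, adjusted p = 0.0346 in edgeR) and -0.27 ± 0.10 (SE, adjusted p = 0.0446 in edgeR). The ARF2 call was lost without any of 7 of the 8 libraries, the ARF3 and ARF1 calls without any of 5, the ARF15 call without any of 3, and the ARF8 and ARF4 calls held. Without Bowman replicate 4 the ARF3 log2 fold change was -0.18 (0.158). Summed over all 45 ARFs, mnd1.a libraries held 3455 to 3517 CPM and Bowman libraries 3690 to 3874 CPM at W5.0, without overlap.

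**Figure D3:**
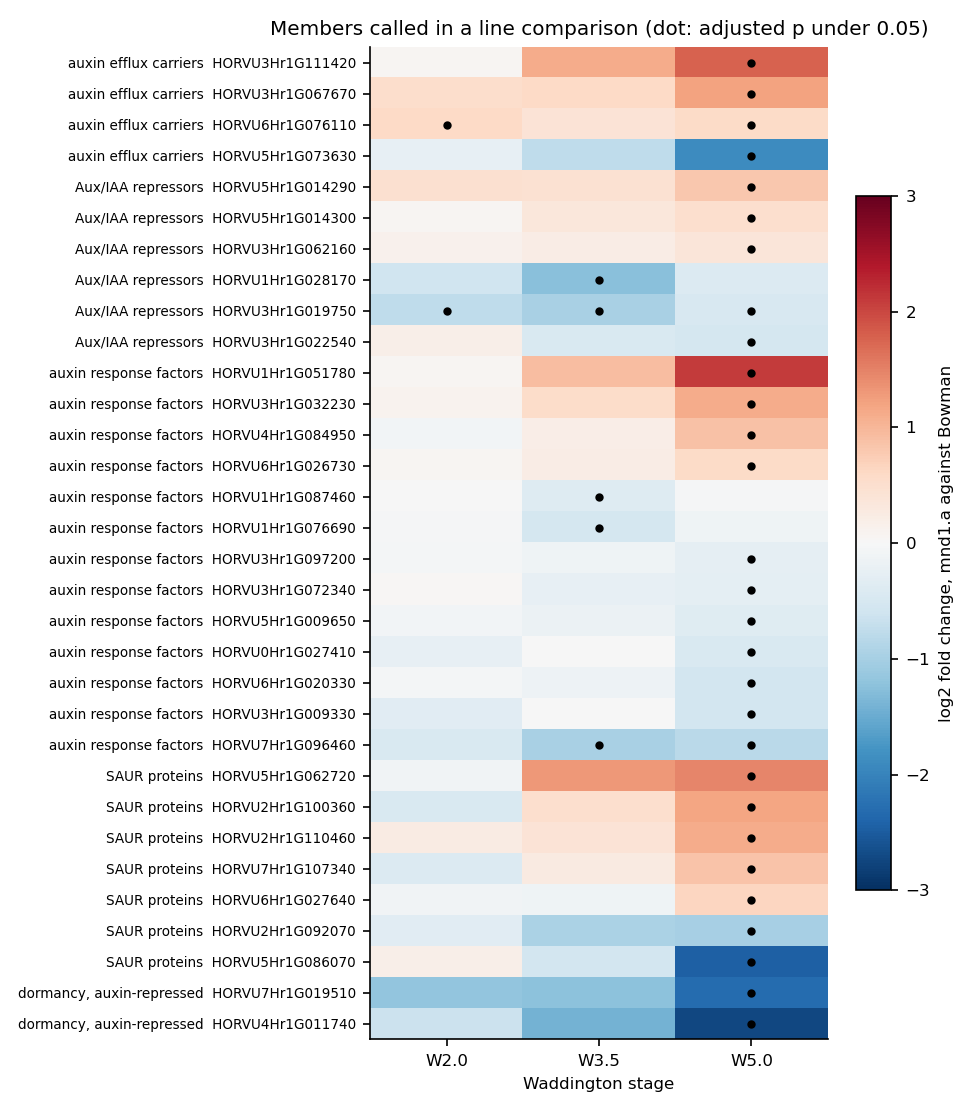
Log2 fold change of mnd1.a against Bowman (colour, from -3 to 3) at each stage for the 32 members called in at least 1 line comparison, ordered by role. Dots mark adjusted p under 0.05, and IAA2 (HORVU3Hr1G019750) is the one gene with a dot at all 3 stages.

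Of 28 tested SAUR genes, which code for small proteins that promote cell expansion, 0 were called in edgeR at W2.0 and likewise at W3.5 (0 and 4 at an unadjusted p under 0.05), and 5 were higher and 2 lower in mnd1.a at W5.0. The W5.0 calls were 25% of those tested, next to 30.2% of all genes. Most had low levels, and 16 of the 44 were not tested. HORVU2Hr1G110460 (2H from 719875104 to 719876317) measured 6.60, 6.25, 7.04 and 5.17 CPM in mnd1.a and 3.41, 2.06, 3.10 and 2.98 CPM in Bowman at W5.0. The groups did not overlap, and the log2 fold change was 1.11 ± 0.20 (SE, adjusted p = 5.05e-04 in edgeR). HORVU5Hr1G062720 (5H from 487389416 to 487390136) measured 0.989, 1.54, 1.51 and 0.986 CPM in mnd1.a and 0.576, 0.321, 0.563 and 0.317 CPM in Bowman, with a log2 fold change of 1.46 ± 0.35 (SE, adjusted p = 0.00438 in edgeR). At W2.0 the lines overlapped for this gene, at 4.39, 2.73 and 2.92 and 3.74, 2.79 and 4.19 CPM. Both W5.0 calls held without each library in turn.

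The other SAUR calls at W5.0 each depended on single libraries. HORVU2Hr1G100360 was higher by a log2 fold change of 1.20 ± 0.36 (SE, adjusted p = 0.0167 in edgeR), SAUR25 (HORVU6Hr1G027640) by a log2 fold change of 0.64 ± 0.21 (SE, adjusted p = 0.0265 in edgeR) and HORVU7Hr1G107340 by a log2 fold change of 0.86 ± 0.31 (SE, adjusted p = 0.0402 in edgeR). HORVU7Hr1G107340 lies on 7H, 14.26 Mb from MND1, within a 620 to 660 Mb window around MND1, where the line and any donor chromosome carried along cannot be told apart. HORVU2Hr1G092070 was lower, at 1.48, 2.24, 2.12 and 1.97 CPM in mnd1.a and 3.01, 5.14, 5.07 and 2.35 CPM in Bowman, with a log2 fold change of -0.99 ± 0.30 (SE, adjusted p = 0.0185 in edgeR). HORVU5Hr1G086070 had 0, 0.154, 0.0757 and 0 CPM in mnd1.a and 0.222, 0.899, 0.282 and 0.0634 CPM in Bowman. Its groups overlapped, most of its values were near the level of a few counts, and the log2 fold change was -2.44 ± 0.84 (SE, adjusted p = 0.0338 in edgeR), or -1.58 without Bowman replicate 2 (0.175).

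None of the 5 GH3 enzymes whose annotation contains auxin was called between the lines at any stage in edgeR, with 0 of 5 at an unadjusted p under 0.05 at each stage. HORVU2Hr1G034670, the one with the highest mean CPM, had log2 fold changes of -0.09 ± 0.29, 0.04 ± 0.28 and 0.22 ± 0.26 (SE) in stage order (edgeR adjusted p = 0.973, 0.956 and 0.564). The summed GH3 level overlapped between the lines at W5.0, at 17.97 to 20.38 CPM in mnd1.a and 13.92 to 21.26 CPM in Bowman. A further 3 tested GH3.9 genes, whose annotation says indole-3-acetic acid in place of auxin and which are not members, did include calls. HORVU3Hr1G077360 was lower at W3.5 (log2 fold change -1.59 ± 0.43, adjusted p = 0.0464), while at W5.0 HORVU1Hr1G092890 was higher (0.42 ± 0.13, 0.0193) and HORVU1Hr1G066340 lower (-0.72 ± 0.21, 0.0158).

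The dormancy and auxin-repressed proteins, a small family known for high transcript levels in dormant buds and low ones in growing tissue, included the largest called fold change among the members at W5.0. The auxin-repressed protein HORVU4Hr1G011740 (4H from 36723471 to 36724089) measured 35.5, 42.5, 62.6 and 23.4 CPM in mnd1.a and 85.5, 477, 368 and 152 CPM in Bowman. The groups did not overlap, but the Bowman libraries spread widely. The log2 fold change was -2.72 ± 0.67 (SE, adjusted p = 0.00639 in edgeR), and the call held without each library in turn. At W2.0 and W3.5 the lines overlapped, and log2 fold changes of -0.65 ± 0.73 (SE, adjusted p = 0.886 in edgeR) and -1.42 ± 0.71 (SE, adjusted p = 0.259 in edgeR) did not pass. A dormancy/auxin associated gene on 7H, HORVU7Hr1G019510, had 0.165, 0.309, 0.151 and 0.164 CPM in mnd1.a and 0.842, 0.578, 2.53 and 0.0634 CPM in Bowman, with overlap. Its log2 fold change was -2.31 ± 0.82 (SE, adjusted p = 0.0407 in edgeR), and it was -1.34 without Bowman replicate 3 (0.222). The remaining 2 genes of the family, HORVU5Hr1G062510 and HORVU4Hr1G047240, were not called, with -0.34 ± 0.37 (SE, adjusted p = 0.519 in edgeR) and -0.19 ± 0.24 (SE, adjusted p = 0.587 in edgeR). All 4 had a negative log2 fold change at each stage, with a median of -0.47, -1.16 and -1.33, while 0 were called at W2.0 and W3.5 in edgeR (0 and 1 at an unadjusted p under 0.05).

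**Figure D4:**
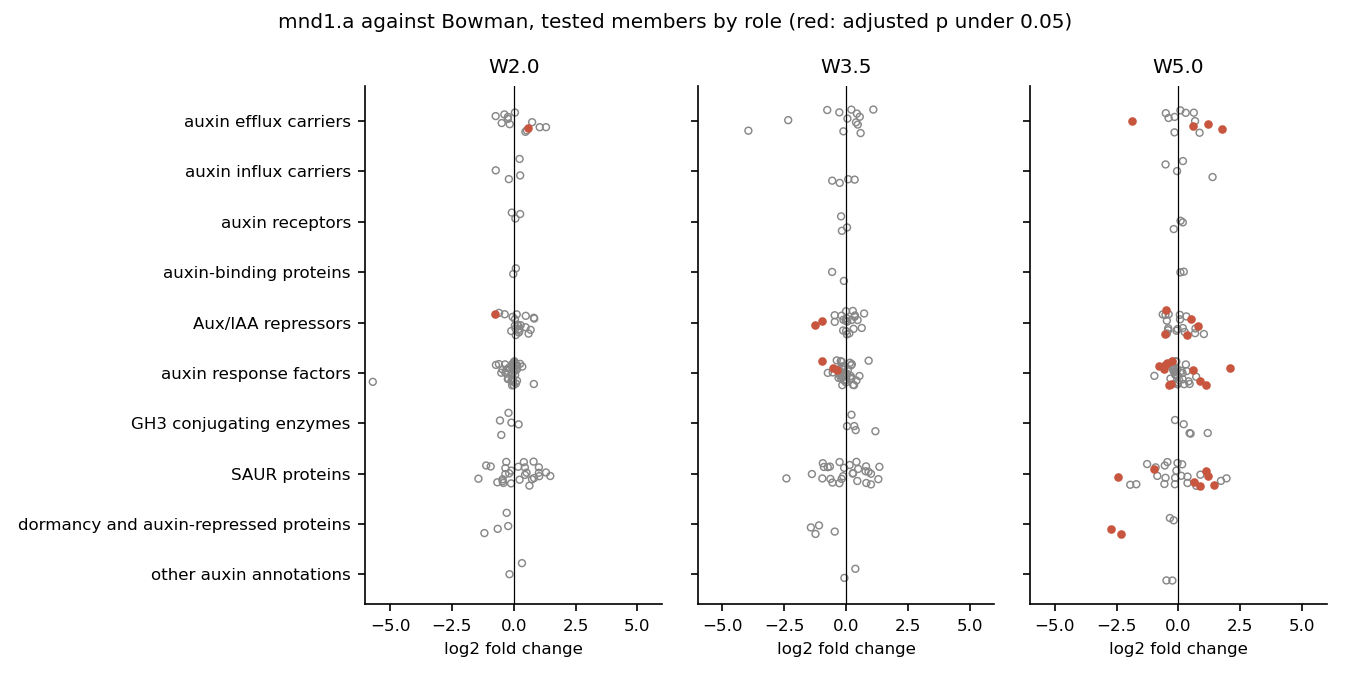
Log2 fold change of mnd1.a against Bowman (horizontal axes) for the 122 tested members by role, 1 panel for each stage, with called members in red. At W5.0 both directions occur among response factors (4 higher, 7 lower), SAUR proteins (5 and 2), Aux/IAA repressors (3 and 2) and efflux carriers (3 and 1), while the 2 called dormancy and auxin-repressed genes were lower. Of all genes, 15% were called higher and 15.2% lower at W5.0.

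The leftmost points of the plot by role at W2.0 and at W3.5 are the ARF2 gene HORVU3Hr1G096410 and the efflux carrier HORVU7Hr1G110470. They were at 0 in every mnd1.a library of that stage and were not called, and no fold is given for them. HORVU7Hr1G110470 lies 6.95 Mb from MND1, within the 620 to 660 Mb window, where the line and any donor chromosome carried along cannot be told apart.

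Markers of tissue composition moved with some of these results. They were taken by words in the annotation of genes that are not members. The meristem list holds genes annotated with MADS-box, KNOTTED, FLORICAULA or LEAFY. MADS-box genes are not limited to meristems, so that list does not measure the amount of meristem alone. The vascular list holds genes annotated with cellulose synthase, fasciclin, laccase or xylem. These words are not limited to vascular tissue, so that list does not measure vascular tissue alone. At W3.5, 13 of 43 tested inflorescence and floral meristem markers were called lower and 0 higher in mnd1.a, with a median log2 fold change of -0.74. Their summed level was 963.2 to 1102.3 CPM in mnd1.a and 1204.1 to 1534.6 CPM in Bowman, and of 50 in the table, 1 was at 0 in all mnd1.a libraries and 0 in all Bowman libraries. At W5.0, 7 of the 43 meristem markers were called lower and 2 higher, with a median log2 fold change of -0.24. Their summed levels did not overlap, at 1225.8 to 1240.2 CPM in mnd1.a and 1391.4 to 1734.7 CPM in Bowman. Of the 50, 1 was at 0 in all mnd1.a libraries and 0 in all Bowman libraries. Of 78 green leaf markers, 11 were called higher and 8 lower. Of 63 tested vascular markers, 14 were called higher and 1 lower, with a median of 0.33. Vascular summed levels overlapped, at 2547.8 to 2843.6 CPM in mnd1.a and 2373.4 to 2938.3 CPM in Bowman. Of all genes, 15% were called higher and 15.2% lower at W5.0. Of 71 vascular markers in the table, 0 were at 0 in all libraries of either line at W5.0. The part of these tissues in the auxin gene levels was not tested.

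The second question was how the auxin genes moved with stage within each line. From W2.0 to W3.5 in Bowman, 24 members were called, 14 higher and 10 lower at W3.5, or 19.7% against 29.4% of all genes. The 10 include both SAUR genes of a pair with identical counts. In mnd1.a 5 were called over the same step, 3 higher and 2 lower, or 4.1% against 3.78%. From W3.5 to W5.0, 6 were called in Bowman (2 higher and 4 lower, 4.92% against 7.59% of all genes, of which 3.89% higher and 3.7% lower) and 15 in mnd1.a (7 higher and 8 lower, 12.3% against 10.1%, of which 5.12% higher and 5.01% lower). The W2.0 to W3.5 steps in both lines and the W3.5 to W5.0 step in mnd1.a join libraries of different code prefixes, so prefix and stage cannot be told apart there. The Bowman W3.5 to W5.0 step lies within 1 prefix. Bowman W3.5 replicates 2 and 4, the libraries with the lowest totals, weighed on both Bowman steps, which had 10 and 22 calls without them. Single libraries mattered as well. The Bowman W2.0 to W3.5 count was 11 without W2.0 replicate 1 and 14 without W2.0 replicate 2. The Bowman W3.5 to W5.0 count was 0 without W3.5 replicate 1 or W5.0 replicate 2, 2 without W5.0 replicate 4, 14 without W5.0 replicate 1 and 18 without W3.5 replicate 4. In mnd1.a the first count was 2 without W2.0 replicate 1, W2.0 replicate 3 or W3.5 replicate 2, and 3 without W2.0 replicate 2 or W3.5 replicate 1. The second was 2 without W3.5 replicate 2, 6 without W3.5 replicate 1 or W5.0 replicate 4, 8 without W5.0 replicate 2 and 9 without W5.0 replicate 1. Tissue markers moved over the W2.0 to W3.5 step too. In Bowman, 56 of 78 green leaf markers were called higher and 4 lower, and 1 of 63 vascular markers higher and 25 lower, whereas in mnd1.a these counts were 0 and 2, and 0 and 11. Of 43 inflorescence and floral meristem markers, 23 were called higher and 3 lower in Bowman and 1 and 2 in mnd1.a. Summed levels of the green leaf markers went from 295.8 to 510.7 CPM at W2.0 to 1398.5 to 1899.3 CPM at W3.5 in Bowman, and from 859.9 to 1516.1 to 1242.2 to 1879.3 CPM in mnd1.a. From W3.5 to W5.0, 3 meristem markers were called higher and 2 lower in Bowman, and 16 and 3 in mnd1.a, where their summed level went from 963.2 to 1102.3 CPM to 1225.8 to 1240.2 CPM. Over that step 1 green leaf marker was called higher and 1 lower in Bowman, and 9 and 2 in mnd1.a, and 1 vascular marker higher and 5 lower in Bowman, and 0 and 5 in mnd1.a. Their part in the auxin gene steps was not tested. Of the members' single calls, 7 of 24 and 1 of 5 over the first step in Bowman and mnd1.a, and 0 of 6 and 2 of 15 over the second, held without each library in turn.

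Most SAUR genes had lower values at W3.5 than at W2.0, with a positive log2 fold change in only 4 of 28 in Bowman. There, 6 of 28 tested SAUR genes were called lower and 1 higher, with a median log2 fold change of -0.82 (all genes 0.0012), and in mnd1.a 1 was called lower and 0 higher, with a median of -0.84 (all genes -3e-04). The 6 include HORVU5Hr1G017120 and HORVU5Hr1G086330, whose counts are identical, so they are 1 measurement. Of all genes, 15.2% were called lower and 14.2% higher in Bowman, and 2.19% and 1.59% in mnd1.a. Summed over 44 SAUR genes, Bowman libraries held 54.8 to 72.6 CPM at W2.0, 29.9 to 57.8 CPM at W3.5 and 27.8 to 39.2 CPM at W5.0. The sums in mnd1.a were 64.7 to 71.3, 39.97 to 48.8 and 37.95 to 44.2 CPM. HORVU5Hr1G062720 fell in Bowman from 3.74, 2.79 and 4.19 CPM at W2.0 to 0.639, 0.830, 0.474 and 0.337 CPM at W3.5, a log2 fold change of -2.64 ± 0.35 (SE, adjusted p = 3.89e-05 in edgeR). In mnd1.a its log2 fold change was -1.24 ± 0.35 (SE, adjusted p = 0.0560 in edgeR). HORVU5Hr1G086240 fell in both lines, from 2.13, 1.29 and 1.66 to 0.639, 0.0830, 0.172 and 0.0843 CPM in Bowman and from 2.32, 2.03 and 2.92 to 0, 0.159 and 0.305 CPM in mnd1.a. Its log2 fold changes were -2.70 ± 0.75 (SE, adjusted p = 0.0112 in edgeR) and -3.85 ± 0.88 (SE, adjusted p = 0.0193 in edgeR), and the mnd1.a call was lost without any of 4 of 6 libraries (adjusted p up to 0.0908). HORVU2Hr1G092070 was the SAUR gene that rose in Bowman, by a log2 fold change of 0.95 ± 0.34 (SE, adjusted p = 0.0432 in edgeR), a call lost without any of 5 of 7 libraries, and in mnd1.a its log2 fold change was 0.33 ± 0.39 (SE, adjusted p = 0.683 in edgeR). The test of the difference between these steps did not pass (-0.62 ± 0.52, adjusted p = 0.650).

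Over the same step in Bowman, 10 of 39 tested ARFs rose and 1 fell, and in mnd1.a 3 were called higher and 1 lower. These were 28.2% in Bowman and 10.3% in mnd1.a, next to 29.4% and 3.78% of all genes. The summed ARF level of Bowman libraries was 3108 to 3184 CPM at W2.0, 3466 to 3828 at W3.5 and 3690 to 3874 at W5.0, and that of mnd1.a libraries was 3076 to 3193, 3159 to 3624 and 3455 to 3517. ARF1 (HORVU2Hr1G076920) had the smallest p of the ARFs, with a log2 fold change of 0.45 ± 0.08 (SE, adjusted p = 5.93e-04 in edgeR) in Bowman. An ARF6 gene on 3H, HORVU3Hr1G022060, rose in mnd1.a from 3.31, 3.67 and 3.28 CPM to 7.11, 6.12 and 6.41 CPM, a log2 fold change of 0.94 ± 0.17 (SE, adjusted p = 0.00438 in edgeR), and in Bowman by a log2 fold change of 0.48 ± 0.16 (SE, adjusted p = 0.0310 in edgeR). That Bowman call was lost without any of 6 of 7 libraries (adjusted p up to 0.099). A further ARF6 gene, HORVU4Hr1G029700, rose in Bowman by a log2 fold change of 0.85 ± 0.22 (SE, adjusted p = 0.00692 in edgeR). Its log2 fold change in mnd1.a was 0.43 ± 0.23 (SE, adjusted p = 0.3125 in edgeR). Among the transport genes, the efflux carrier HORVU6Hr1G094970 rose in Bowman by a log2 fold change of 1.68 ± 0.45 (SE, adjusted p = 0.0109 in edgeR), and IAA2 rose there by a log2 fold change of 0.59 ± 0.14 (SE, adjusted p = 0.00353 in edgeR). In mnd1.a these log2 fold changes were 0.93 ± 0.44 and 0.37 ± 0.15 (SE, adjusted p = 0.246 and 0.160 in edgeR). ARF15 (HORVU1Hr1G087460) fell in mnd1.a by a log2 fold change of -0.42 ± 0.09 (SE, adjusted p = 0.00965 in edgeR) and rose again from W3.5 to W5.0 by a log2 fold change of 0.26 ± 0.08 (SE, adjusted p = 0.0433 in edgeR), the second call being lost without any of 6 of 7 libraries. The difference of these steps from those in Bowman did not pass the test (adjusted p = 0.183 and 0.154 in edgeR).

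From W3.5 to W5.0, the same 2 efflux carriers and 1 Aux/IAA gene were called lower in both lines. In Bowman these were the only calls of their roles. In mnd1.a, 3 carriers were called lower and 1 higher, and 2 Aux/IAA genes were called lower. Of all genes, 3.7% were called lower in Bowman and 5.01% in mnd1.a. HORVU6Hr1G076110 fell by a log2 fold change of -0.64 ± 0.12 (SE, adjusted p = 0.0159 in edgeR) in Bowman and by a log2 fold change of -0.46 ± 0.13 (SE, adjusted p = 0.0273 in edgeR) in mnd1.a, and HORVU3Hr1G111420 by a log2 fold change of -2.21 ± 0.44 (SE, adjusted p = 0.0185 in edgeR) and -1.54 ± 0.41 (SE, adjusted p = 0.0226 in edgeR). IAA23 (HORVU7Hr1G084940) fell by a log2 fold change of -0.95 ± 0.26 (SE, adjusted p = 0.0361 in edgeR) in Bowman and by a log2 fold change of -1.55 ± 0.29 (SE, adjusted p = 0.00223 in edgeR) in mnd1.a. Each of the 6 Bowman calls was lost without at least 1 library, and the 2 mnd1.a calls that held without every library were those of IAA23 and the efflux carrier HORVU7Hr1G038700, which fell by a log2 fold change of -0.62 ± 0.13 (SE, adjusted p = 0.00429 in edgeR). The log2 fold change of HORVU7Hr1G038700 in Bowman was -0.25 ± 0.12 (SE, adjusted p = 0.181 in edgeR). In mnd1.a, IAA25 (HORVU7Hr1G077110) fell by a log2 fold change of -1.15 ± 0.36 (SE, adjusted p = 0.0474 in edgeR) and the SAUR gene HORVU7Hr1G075080 by a log2 fold change of -2.34 ± 0.61 (SE, adjusted p = 0.0210 in edgeR). Their log2 fold changes in Bowman were -0.27 ± 0.32 and -1.41 ± 0.56 (SE, adjusted p = 0.633 and 0.118 in edgeR). The GH3 gene HORVU3Hr1G029670 rose in Bowman from 2.81, 4.40, 3.75 and 6.07 to 5.45, 13.9, 10.7 and 10.3 CPM, a log2 fold change of 1.25 ± 0.25 (SE, adjusted p = 0.0185 in edgeR). Its log2 fold change in mnd1.a was 0.79 ± 0.27 (SE, adjusted p = 0.0739 in edgeR). In mnd1.a, the efflux carrier HORVU5Hr1G073670 rose from 0, 0.318 and 0.793 to 1.40, 2.32, 1.97 and 2.14 CPM, a log2 fold change of 2.32 ± 0.69 (SE, adjusted p = 0.0401 in edgeR) that was lost without any of 6 of 7 libraries and was 3.62 without W3.5 replicate 3, and the dormancy/auxin associated gene HORVU5Hr1G062510 rose from 5.26, 6.04 and 5.92 to 17.9, 19.3, 21.5 and 16.2 CPM, a log2 fold change of 1.70 ± 0.44 (SE, adjusted p = 0.0211 in edgeR).

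**Figure D5:**
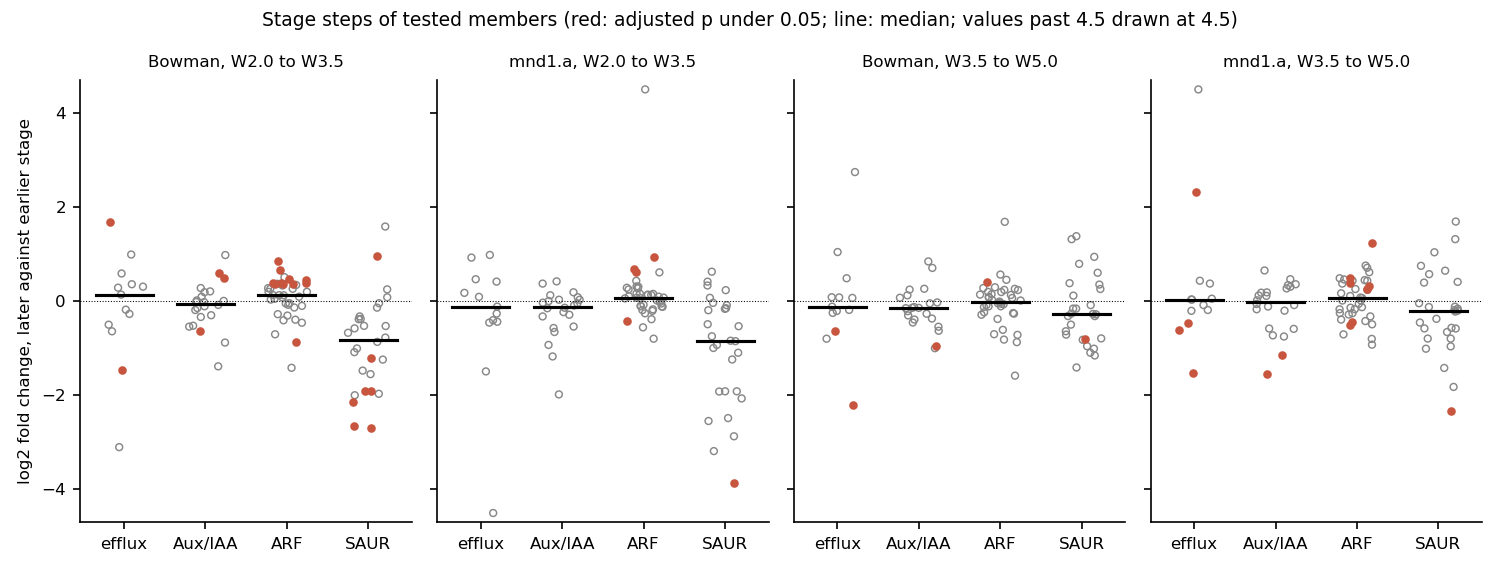
Log2 fold change of the later against the earlier stage (vertical axes) for tested efflux carriers, Aux/IAA repressors, response factors and SAUR proteins in each line, with called members in red and the median as a line. The SAUR median lies at -0.82 in Bowman and -0.84 in mnd1.a from W2.0 to W3.5, and 3 values past 4.5 in size are drawn at the limit.

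The third question was whether a line difference changed with stage. From W2.0 to W3.5 and from W3.5 to W5.0, 0 of 122 members passed the interaction test in edgeR. Of all genes, 0.189% and 1.02% were called. In these contrasts, 6 and 14 members had an unadjusted p under 0.05, next to 2829 and 2833 of 21132 genes. DESeq2 and limma-voom also called 0 members in both. From W2.0 to W5.0, 3 members were called (1 without any of 6 single libraries, 5 without Bowman W2.0 replicate 3 and 7 without Bowman W5.0 replicate 1), 2 with a line difference that moved up and 1 with a difference that moved down, or 2.46% against 10.3% of all genes (5.09% up and 5.19% down). The line difference of the ARF6 gene HORVU6Hr1G026730 went from 0.07 to 0.58, a change of 0.51 ± 0.12 (SE, adjusted p = 0.0105 in edgeR) that held without each library in turn. That of the SAUR gene HORVU5Hr1G062720 went from -0.10 to 1.46, a change of 1.56 ± 0.48 (SE, adjusted p = 0.0452 in edgeR). That of the efflux carrier HORVU7Hr1G038700 went from 0.47 to -0.15, a change of -0.63 ± 0.18 (SE, adjusted p = 0.0335 in edgeR). The SAUR call was lost without any of 11 of 14 libraries (adjusted p up to 0.116) and the carrier call without any of 8 (up to 0.097). At W5.0 the line difference carries the prefix difference as well. Over the same contrast 37 of 78 green leaf markers were called down and 3 up, with a median change of -1.89, as were 5 and 0 of 43 meristem markers and 0 and 1 of 63 vascular markers. Summed green leaf levels were higher in mnd1.a at W2.0 and overlapped at W5.0, at 1232 to 1888.4 CPM in mnd1.a and 1356.8 to 2102.7 CPM in Bowman. Their part in the changed line differences was not tested.

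The members are unevenly placed, with 47 of 153 on chromosome 5H, next to 27 on 3H, 20 on 7H, 18 on 2H, 13 each on 1H and 6H, 12 on 4H and 3 unplaced. Much of the 5H share is 3 runs of SAUR genes in which neighbouring members lie within 1 Mb of each other. One run has 9 members from 575247884 to 576178567, one has 8 from 66276682 to 66413084, and one has 6 from 153772531 to 153804252. Of the first run 6 were tested, of the second 5 and of the third 0. In the first run, sums in Bowman libraries were 4.83 to 5.42 CPM at W2.0 and 1.41 to 2.56 CPM at W3.5. In mnd1.a libraries they were 7.04 to 7.96 CPM and 1.21 to 1.83 CPM. All 6 tested genes had a negative log2 fold change over this step in each line, with 3 called lower in Bowman and 1 in mnd1.a. HORVU5Hr1G086330, 1 of those 3, has the same counts as HORVU5Hr1G017120 of the second run, also called lower in Bowman. In the second run, sums were 5.79 to 8.26 CPM in Bowman and 10.9 to 13.4 CPM in mnd1.a at W2.0, without overlap, and all 5 tested genes had a positive line difference there, with 0 called. The pairs with identical counts each join 1 gene of the first run to a gene of another run. HORVU5Hr1G017120 pairs with HORVU5Hr1G086330 and HORVU5Hr1G017140 with HORVU5Hr1G086320 from the second run, and HORVU5Hr1G026970 with HORVU5Hr1G086090 and HORVU5Hr1G027070 with HORVU5Hr1G086250 from the third. Reads of such near-identical copies could be split by the authors' counting, so the place of origin of these counts is uncertain. Positions are those of the deposited table, whose genome build was not given in the sources used here.

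Other genes of the pathway, found by fixed words in the annotation without auxin, were 66, of which 51 were tested. In stage order, 0, 0 and 2 were higher and 1, 4 and 13 lower, with shares of 1.96%, 7.84% and 29.4%. Of all genes 0.79%, 3.91% and 30.2% were called at these stages. LOB domain-containing protein 37 (HORVU2Hr1G035160) was lower at all 3 stages, with log2 fold changes of -1.34 ± 0.18, -1.17 ± 0.17 and -1.09 ± 0.16 (SE, edgeR adjusted p = 4.92e-04, 5.43e-04 and 1.01e-04). It is in this list only by the words LOB domain, and the annotation does not say whether it takes part in the auxin response. Of 6 tested TOPLESS-related genes, which code for the corepressors that Aux/IAA proteins recruit, 4 were lower at W5.0, with log2 fold changes from -0.61 to -0.57. Of 18 tested flavin-containing monooxygenases, a family that includes the YUCCA enzymes of auxin synthesis but is not resolved further by the annotation, 2 were lower and 0 higher at W3.5, while 5 were lower and 0 higher at W5.0. HORVU6Hr1G029800 among them was lower at both, with log2 fold changes of -0.56 ± 0.13 and -0.93 ± 0.12 (SE, edgeR adjusted p = 0.0263 and 3.71e-05). A TIR1-like receptor (HORVU2Hr1G070800) was lower at W5.0, with a log2 fold change of -0.29 ± 0.09 (SE, adjusted p = 0.0185 in edgeR). None of the 2 tryptophan aminotransferases, which make the precursor that YUCCA enzymes convert to auxin, was called at any stage.

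The authors' deposited table lists 3 members at an FDR under 0.05 at W2.0, 1 higher and 2 lower, 4 at W3.5, all lower, and 28 at W5.0, 13 higher and 15 lower. Of these, 2, 4 and 25 were also called here. Their shares of all 153 members, 1.96%, 2.61% and 18.3%, stood next to 1.08%, 2.73% and 26.3% of all genes in the authors' deposited table.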

How the data were processed

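Per the labels' protocols, TRIzol and column purification gave the RNA, DNA was removed, and Illumina libraries were made. The submitters' processing notes name Salmon, BWA 0.7.15, GATK and limma without stating their roles, and the genome build and library strandness are not given in the sources used here. The deposited values are the authors' estimated counts per gene, of which 94.8% were not whole numbers (tolerance 1e-06). They were rounded. The authors' deposited log2 fold changes and FDR values were copied without change, and their log2 CPM, 21 of 42 columns of per-library values, were not used. Of 22 samples in the labels, 21 libraries were used, and 1 of another line was not analysed here. Count columns headed W3.0 were read as W3.5, the middle stage that labels and fold change headers name. Column headers give line, stage and replicate but no library code, and a replicate number here is merely a library's name.

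Genes were kept by filterByExpr (minimum count 10, minimum total 15), which left 21132 and removed 3186. Counts were scaled by TMM (factors 0.902 to 1.08) and fitted in edgeR 4.0.16 (R 4.3.3) with a robust quasi-likelihood model of 6 group means over 21 libraries. The p-values were adjusted by Benjamini-Hochberg over all genes tested, and a call is an adjusted p under 0.05. The SE is the log2 fold change divided by the square root of F. The fit was also run on simulated counts with known fold changes. These had the same relative spread in all genes, and only genes with higher counts were changed. That run does not show how the fit performs for members at low counts. Alternatives were RLE scaling, no filter, DESeq2 1.42.0, limma-voom (limma 3.58.1), a stricter call (adjusted p under 0.01 and a change of 2-fold or more), only the groups compared in the fit, and each library left out.

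The members and lists were chosen with earlier results of these data known. The receptor group was widened to auxin F-box proteins after the annotations were read. For each line comparison up to 10 called members per direction were named by smallest p, for each change of the line difference up to 6, and for each stage step up to 4 per direction by largest log2 fold change. Of each role without a call, the member with the highest mean CPM was named. The following members were named outside this rule, after their values were seen: ARF1 (HORVU3Hr1G032230 and HORVU2Hr1G076920), ARF3, IAA30, the carriers HORVU3Hr1G067670, HORVU3Hr1G114270 and HORVU4Hr1G019930, the receptors HORVU4Hr1G078120 and HORVU6Hr1G021040, the SAUR genes HORVU7Hr1G107340 and those with identical counts, the dormancy genes HORVU7Hr1G019510 and HORVU4Hr1G047240, and the genes at 0, HORVU3Hr1G096410 and HORVU7Hr1G110470. The pathway genes named were also chosen after their values were seen. No sequences are printed.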

Additional observations from a re-analysis of the deposited data

Results flagged for a closer look

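A library was singled out where its gap to the nearest library of its group, divided by the group's range, passed Dixon's 95% critical value, in groups of 4. Of 129 gene and group pairs tested, 8 did so, and chance gives about 1 in 20. In Bowman at W3.5, replicate 1 stood apart for ARF8 (HORVU0Hr1G027410), at 16.7 CPM with the others at 14.3 to 14.6 CPM. It also stood apart for the SAUR gene HORVU5Hr1G086240, at 0.639 CPM with the others at 0.083 to 0.172 CPM. Replicate 3 stood apart for the auxin-repressed protein HORVU4Hr1G011740, at 270.1 CPM with the others at 67.7 to 98.2 CPM, and for the ARF6 gene HORVU6Hr1G026730, at 148.7 CPM with the others at 113.4 to 119.4 CPM. In Bowman at W5.0, replicate 1 stood apart for IAA16 (HORVU1Hr1G028170), at 16.9 CPM with the others at 12.3 to 12.4 CPM. It did so for HORVU5Hr1G086240, at 1.73 CPM with the others at 0.1285 to 0.381 CPM, and for auxin F-box protein 5 (HORVU6Hr1G077570), where it was the lowest at 99.7 CPM with the others at 107.6 to 109.0 CPM. In mnd1.a at W5.0, replicate 3 stood apart for the efflux carrier HORVU5Hr1G073630, at 1.89 CPM with the others at 0.824 to 1.00 CPM.

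For 3 members the line difference at W5.0 differed from that at W2.0 by the test of the difference itself. The changes on the log2 scale were 0.51 for the ARF6 gene HORVU6Hr1G026730, 1.56 for the SAUR gene HORVU5Hr1G062720 and -0.63 for the efflux carrier HORVU7Hr1G038700 (edgeR adjusted p = 0.0105, 0.0452 and 0.0335).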

How the results depend on the processing

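No direction of a named result reversed under any alternative run. Counts of members called moved by more than 1.5 times as follows. At W2.0 the count of 2 became 1 with no filter on low counts, and 0 with only the groups compared in the fit or under a stricter call (adjusted p under 0.01 and a change of 2-fold or more). At W3.5 the count of 5 became 8 with DESeq2, and 1 under the stricter call, with only the groups compared, or without Bowman W3.5 replicates 2 and 4 together. That last alternative was chosen after seeing the data. It gave 10 in place of 24 for the Bowman W2.0 to W3.5 step and 22 in place of 6 for the next. The stricter call left 4 at W5.0, 0 for the change of the line difference from W2.0 to W5.0, 1 and 0 for the Bowman steps, and 0 and 1 for the mnd1.a steps. DESeq2 called 13 for the Bowman W3.5 to W5.0 step, and 13 and 23 for the mnd1.a steps. For the Bowman W2.0 to W3.5 step, limma-voom called 11 higher and 17 lower, against 14 and 10. With single libraries left out, counts ran from 0 to 1 at W2.0, 2 to 11 at W3.5 and 19 to 31 at W5.0. They ran from 0 to 0 for the changes from W2.0 to W3.5 and from W3.5 to W5.0, 1 to 7 from W2.0 to W5.0, 11 to 28 and 0 to 18 for the Bowman steps, and 2 to 4 and 2 to 16 for the mnd1.a steps. The causes were not tested. Of the single calls, 15 of 29 at W5.0, 2 of 5 at W3.5 and 0 of 2 at W2.0 held without each library. Over the stage steps, 7 of 24 and 0 of 6 did so in Bowman and 1 of 5 and 2 of 15 in mnd1.a, and 1 of 3 did so for the change from W2.0 to W5.0. Of 89 single results, 88 stayed on their side of the threshold with RLE scaling, 86 with DESeq2, 81 with no filter, 75 with limma-voom and 7 under the stricter call. With only the groups compared 27 stayed and 6 did not. Calls of genes that this smaller fit filtered out are in neither count. Without Bowman W3.5 replicates 2 and 4 together 13 stayed and 22 did not. No paired analysis was possible because the labels carry no replicate numbers that join libraries of the 2 lines. Low counts limit the SAUR genes most, since 16 of 44 could not be tested.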
